A study of Mus musculus with 24 samples.

Results

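The immediate early genes described here are Fos, Fosb, Jun, Junb, Egr1, Egr3, Ier2, Atf3 and Nr4a1, 9 of the 20961 genes listed in a bulk RNA sequencing study of mouse heart. They were picked by symbol, each symbol stood for a single gene, and all 9 were among the 17203 genes that passed the filter on low counts. The study asked whether genetic background alters the response to diet in mouse models of type 2 diabetes. Hearts came from both sexes of 3 inbred strains, all labelled wild type. The first, C57BL/6J, is widely used in laboratories, CAST/EiJ was bred from wild castaneus mice and NZO/HlLtJ is prone to obesity. Mice ate a diet with 10% fat and fiber (the control) or 44% fat and fiber (the diet rich in fat and sugar) from week 6 of age, and hearts were collected at week 15. There were 12 combinations of these factors with 2 libraries each, 24 in all. The labels do not say that the 2 came from separate animals, so p-values measure only the spread between libraries, which may be technical. No other treatment was labelled, and no label gives the time of day or the delay before freezing.

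Immediate early genes are transcribed within minutes of a stimulus from factors already present in the cell, and their messenger RNAs are short-lived. Fos and Fosb join Jun and Junb in AP-1 dimers, Egr1 and Egr3 are zinc finger factors, Nr4a1 is an orphan nuclear receptor, Atf3 is a stress-induced factor of the ATF family and Ier2 is a small nuclear protein. In heart they are known for their response to stretch, adrenergic signals, ischemia and the handling of tissue, so a level in a frozen heart is a single snapshot.

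The libraries held between 30205073 and 52254058 counts, of which mitochondrially encoded genes took 20.2% to 28.8%. All 10 cardiomyocyte markers, among them Myh6 and Tnnt2, were detected in each strain and diet, with a summed level of 65490 to 80902 CPM (counts per 1000000). The markers of fibroblasts and red cells were present too: in C57BL/6J, CAST/EiJ and NZO/HlLtJ, in that order, fibroblast markers summed to 2056 to 2445, 1737 to 2197 and 2848 to 3909 CPM, and erythroid markers to 2777 to 8859, 4415 to 22248 and 4822 to 25438 CPM. In bulk tissue, fewer cells of a type and less RNA per cell cannot be told apart, and this holds for each value below.

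The promoters of 4 members are shown because these genes carry the results: Fos and Nr4a1 had the largest diet differences among the better-counted members, and Atf3 and Junb differed between strains. Each sequence is the 250 bases before a RefSeq start of the gene on its own strand, in build GRCm38.p6 of the C57BL/6J reference. For Atf3 this start, chr1:191183333, lies inside the annotated gene (chr1:191170296-191218039, minus strand), so it is not the outermost start. In the GENCODE M21 annotation Nr4a1 too begins further upstream, at chr15:101254269. Capitals mark TGACG, the core of a cAMP response element, which CREB and ATF factors read (either strand, so CGTCA too), TATAAA, and GCGNGGGCG, the motif of EGR factors.
Fos at chr12:85473640-85473889, plus strand: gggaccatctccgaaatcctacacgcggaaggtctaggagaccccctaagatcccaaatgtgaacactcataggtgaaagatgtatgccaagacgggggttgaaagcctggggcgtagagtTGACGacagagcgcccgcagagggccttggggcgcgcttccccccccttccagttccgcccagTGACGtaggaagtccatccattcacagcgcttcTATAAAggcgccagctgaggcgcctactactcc
Nr4a1 at chr15:101266596-101266845, plus strand: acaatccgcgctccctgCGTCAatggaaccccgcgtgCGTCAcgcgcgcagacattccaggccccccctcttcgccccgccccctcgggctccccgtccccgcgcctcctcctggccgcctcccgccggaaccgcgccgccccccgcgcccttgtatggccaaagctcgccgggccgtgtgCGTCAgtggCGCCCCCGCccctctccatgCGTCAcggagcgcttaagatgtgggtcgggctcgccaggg
Atf3 at chr1:191183334-191183583, minus strand: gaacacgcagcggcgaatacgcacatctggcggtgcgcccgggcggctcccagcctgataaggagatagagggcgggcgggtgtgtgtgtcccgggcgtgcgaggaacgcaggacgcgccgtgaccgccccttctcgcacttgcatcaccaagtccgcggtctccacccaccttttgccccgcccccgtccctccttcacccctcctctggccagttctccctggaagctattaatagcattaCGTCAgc
Junb at chr8:84978749-84978998, minus strand: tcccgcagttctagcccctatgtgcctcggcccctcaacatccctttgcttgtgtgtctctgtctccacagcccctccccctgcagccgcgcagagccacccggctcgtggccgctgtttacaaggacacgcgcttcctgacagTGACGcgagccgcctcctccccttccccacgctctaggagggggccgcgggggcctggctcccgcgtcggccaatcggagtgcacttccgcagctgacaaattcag
RefSeq promoters were at hand for 6 members, these 4 with Jun and Fosb, and not for Egr1, Egr3 and Ier2. Over 300-base windows that also take in 50 bases after the start, TGACG on either strand was in 5 of the 6, against 20.8% of 32851 RefSeq promoters. Nr4a1 had 4 copies, the nearest from -40 to -36 relative to the start, Fos had 2 (from -129 and from -66) and Atf3, Junb and Fosb had 1 each. GCGNGGGCG was in the windows of Nr4a1 and Fosb (5.55% of all promoters) and TATAAA in those of Fos and Junb (13.6%), in Junb just after the start. The full element TGACGTCA (1.79% of promoters), the AP-1 motif TGANTCA (7.81%) and the CArG box of serum response factor (1.63%) were not in any of the 6 windows. These are matches of letters in the reference strain and no sequence of the other strains was read. Sequence outside these windows was not searched, so sites further upstream would be missed.

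The 9 genes lie on 8 chromosomes and are all protein-coding. In the positions the authors' annotation gives, on GRCm38, Fos is at chr12:85473890-85477273, Fosb at chr7:19302696-19310051, Jun at chr4:95049034-95052222, Junb at chr8:84976909-84978748 and Ier2 at chr8:84661331-84662852. Egr1 is at chr18:34859823-34864984, Egr3 at chr14:70077445-70080157, Atf3 at chr1:191170296-191218039 and Nr4a1 at chr15:101266846-101274792. In the GENCODE M21 annotation Junb reaches further and overlaps Prdx2 on the opposite strand, a gene at 181 CPM. Junb and Prdx2 do not overlap in the authors' positions. The strand setting of the counting is unknown, so the count of Junb is uncertain. Jun overlaps its antisense transcript Junos, which was at 0.114 CPM.

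Per kilobase of exons, Jun stood highest at 15.2 ± 2.60 CPM per kb (SD, n = 24), followed by Ier2 at 5.30 ± 0.883 and Junb at 3.84 ± 0.607. Atf3 at 2.74 ± 1.25, Egr1 at 2.64 ± 0.742 and Nr4a1 at 2.51 ± 1.11 CPM per kb did not differ beyond their spread. Fos followed at 0.916 ± 0.507, and Egr3 at 0.124 ± 0.0680 and Fosb at 0.0768 ± 0.0277 were lowest. The lengths are those of GENCODE M21 exons with all transcripts of a gene merged, and the annotation used for counting is unknown. For Egr3 (4406 bases) and Junb (2301 bases) they exceed the whole gene in the authors' positions. On those positions the values per kb of Egr3 and Junb would be higher. In counts, Jun had between 1262 and 2627 per library, Fos between 31 and 326, Fosb between 7 and 32 and Egr3 between 0 and 65. Egr3 had 0 counts in the NZO/HlLtJ female 10% fat replicate 1 library, where a count of 0 allows up to 3 counts or 0.0885 CPM. The other library of its group had 25 counts, 7.20-fold above that limit. The limit covers counting error of the 0 count only, and the error of the 25 counts was not taken into account.

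**Figure D1:**
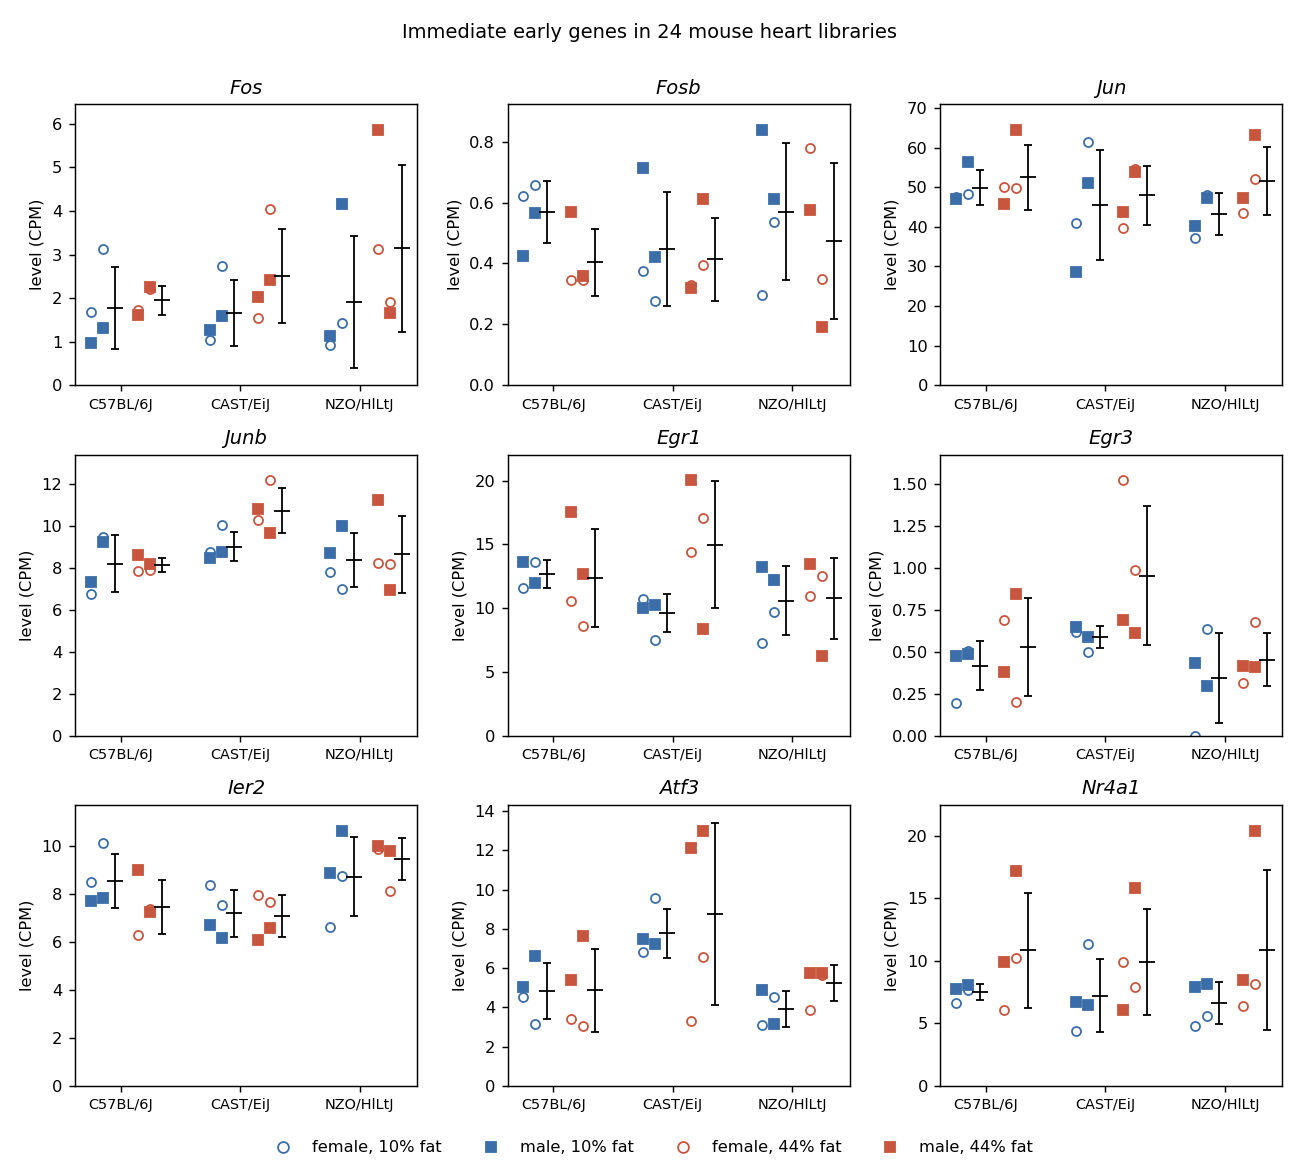
Level of each immediate early gene in CPM (vertical axis, from 0) in the 24 libraries, by strain, with colour for diet and symbol for sex; black marks are the mean and SD of the 4 libraries of a strain and diet. Atf3 is higher in CAST/EiJ than in the other strains, and the highest Fos and Nr4a1 values, 5.86 and 20.4 CPM, are both in NZO/HlLtJ males on 44% fat, in different libraries.

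Fos, Nr4a1, Egr1, Jun, Atf3 and Egr3 stood at or above percentile 92.0 of genes of like abundance in their spread between libraries of the same group. The biological coefficient of variation, the spread between replicate libraries beyond counting error, was 0.449 for Fos, 0.346 for Nr4a1, 0.253 for Egr1, 0.208 for Atf3 and 0.195 for Jun, against a median of 0.118 over all genes tested. Among genes within 1.5-fold of their level, Nr4a1 stood at percentile 98.3, Fos at 97.5, Egr1 at 97.3, Jun at 96.8, Atf3 at 92.6 and Egr3 (0.474) at 92.0. Junb (0.131) was at percentile 79.5. Ier2 (0.105) at 50.2 and Fosb (0.297) at 46.4 were close to the middle of their abundance class.

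**Figure D2:**
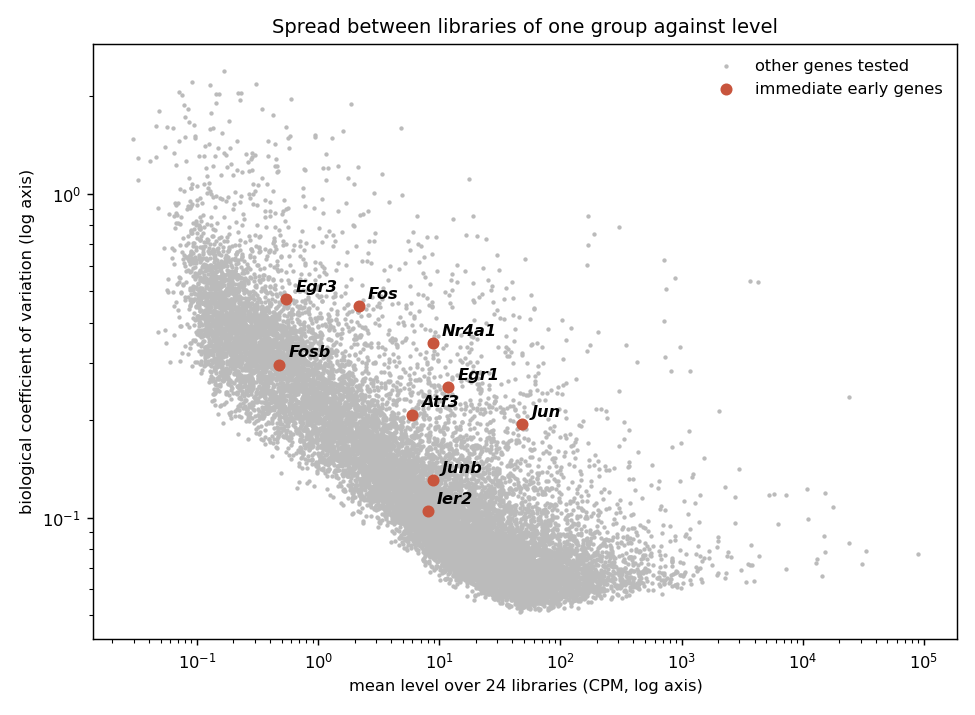
Biological coefficient of variation of each gene tested (vertical log axis) against its mean level in CPM (horizontal log axis); red points are the immediate early genes and grey points the other genes. Nr4a1, Fos, Egr1 and Jun sit at the upper edge of the cloud at their level, from percentile 96.8 to 98.3, while Ier2 and Fosb sit inside it.

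Within single groups the 2 libraries could differ several-fold. In NZO/HlLtJ males on 10% fat, Fos was at 1.12 and 4.15 CPM, a 3.69-fold difference, and in NZO/HlLtJ males on 44% fat it was at 5.86 and 1.66 CPM. In CAST/EiJ males on 44% fat, Nr4a1 was at 6.09 and 15.8 CPM, 2.60-fold apart, and Egr1 at 20.02 and 8.34 CPM, 2.40-fold apart in the opposite direction. Fosb differed 2.89-fold in NZO/HlLtJ males on 44% fat, Atf3 1.99-fold in CAST/EiJ females on 44% fat and Jun 1.79-fold in CAST/EiJ males on 10% fat. The library with the lowest Jun, CAST/EiJ male 10% fat replicate 1 (28.6 CPM), also had the highest summed levels of the 24 for white adipocyte (696 CPM), brown adipocyte (940 CPM) and mesothelial markers (57.6 CPM). The brown adipocyte sum was 656 CPM or more in each library, and whether it reflects brown fat cells was not tested. The library with the highest Fos, NZO/HlLtJ male 44% fat replicate 1, had the highest sums of fibroblast (3909 CPM), macrophage (347 CPM) and Schwann cell and nerve markers (27.1 CPM). The part of these cells in either result was not tested.

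The levels of Fos, Jun and Nr4a1 also lined up with the sample identifiers in the labels, which fall into 3 separate number ranges. Each of the 8 groups of C57BL/6J and CAST/EiJ has 1 library in the first range and 1 in a later range, while NZO/HlLtJ has none in the first. Fos was lower in the first-range library in 8 of 8 groups, with a median of 1.58 CPM (0.969 to 2.01) against 2.33 CPM (1.31 to 4.04). Jun was lower there in 7 of 8 groups, with medians of 44.8 and 54.3 CPM, and Nr4a1 in 6 of 8, with medians of 6.64 and 9.14 CPM. Junb was lower in the first range in 6 of 8 groups, Atf3 in 5, Fosb and Ier2 in 4, and Egr1 and Egr3 in 3. In a fit over all genes with the range added to the group means, the difference of the first range from the others was -0.70 on the log2 scale for Fos (SE 0.32, adjusted p = 0.519, edgeR), -0.37 for Jun (SE 0.088, adjusted p = 0.207) and -0.53 for Nr4a1 (SE 0.24, adjusted p = 0.532). None of the 9 was called, against 0.0174% of all genes. This comparison was chosen after the values of Fos were seen. What the ranges stand for is not given in the labels.

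**Figure D3:**
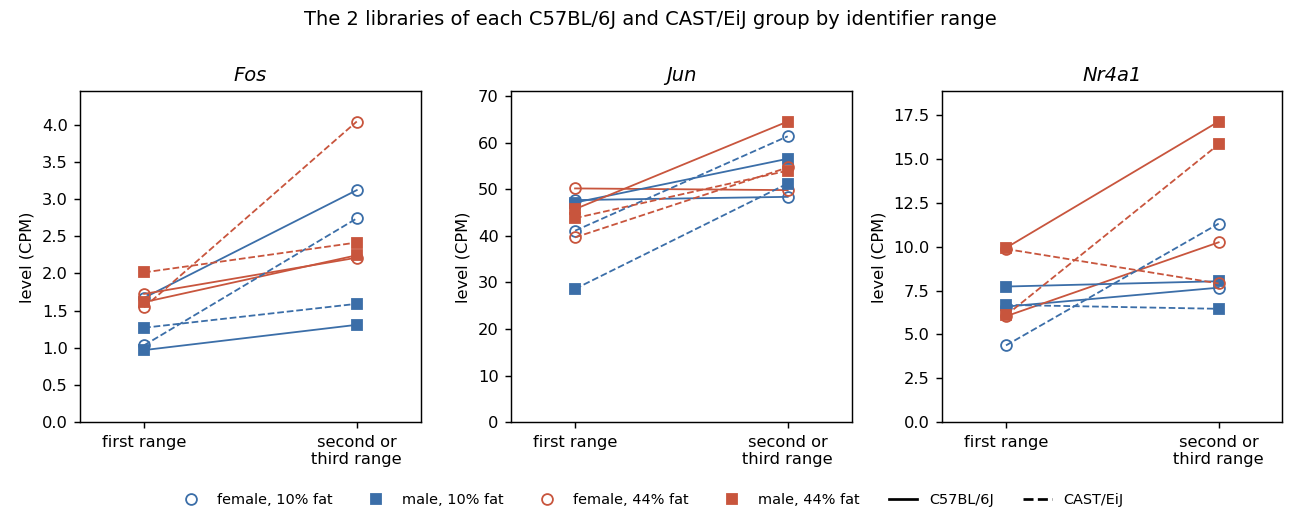
Levels of Fos, Jun and Nr4a1 in CPM (vertical axes, from 0) in the first-range library and the later library of each C57BL/6J (solid lines) and CAST/EiJ (dashed lines) group. The line for Fos goes up in 8 of 8 groups, for Jun in 7 of 8 and for Nr4a1 in 6 of 8.

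The first question was whether the diet changed these genes. None of the 9 was called over the 3 strains, where 0.157% of all genes were (27 of 17203, 0.128% higher and 0.0291% lower, and 1515 at an unadjusted p under 0.05, edgeR). Of the 9 log2 differences, 7 were positive, with a median of 0.14 against -0.0049 over all genes tested. DESeq2, limma-voom, the range as a block and the fits that left out each library also called 0 of them. Nr4a1, Fos and Egr3 had the largest differences.

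Nr4a1 ranged from 4.38 CPM over a median of 7.18 to 11.3 CPM in the 12 libraries on 10% fat and from 6.04 over 9.18 to 20.4 CPM in the 12 on 44% fat. Most values overlapped, and the 3 highest, 15.8 to 20.4 CPM, were all males on 44% fat, 1 in each strain. The mean was higher on 44% fat in 6 of 6 pairs of strain and sex, and the log2 difference was 0.54 (SE 0.21, 95% interval 0.080 to 1.00, unadjusted p = 0.0248, adjusted p = 0.466, edgeR), a 1.45-fold difference that was not called. With the range as a block it was 0.53.

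Fos had a lowest, median and highest level of 0.914, 1.37 and 4.15 CPM on 10% fat and of 1.54, 2.11 and 5.86 CPM on 44% fat. No library on 44% fat was below 1.54 CPM, but the groups overlapped above that level. The difference was 0.55 (SE 0.28, 95% interval -0.049 to 1.15, adjusted p = 0.602, edgeR), higher in 5 of 6 pairs of strain and sex. Egr3 was higher on 44% fat in 6 of 6 pairs (0.44, SE 0.33, 95% interval -0.25 to 1.12, adjusted p = 0.754).

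The other members had smaller differences. Egr1 was at 0.20 (95% interval -0.12 to 0.53), Jun at 0.14 (-0.11 to 0.39), Atf3 at 0.14 (-0.13 to 0.41), Junb at 0.099 (-0.063 to 0.26) and Ier2 at -0.033 (-0.16 to 0.099). Fosb was at -0.27 (-0.73 to 0.20). The intervals of Ier2 and Junb reach no further than 0.26 in either direction, whereas those of Fos and Egr3 reach 1.15 and 1.12. In the 16 libraries outside the first identifier range, in an additive fit chosen after seeing the data, 0 members were called. There Egr1 was at 0.020 (adjusted p = 0.995), Junb at 0.00015 (adjusted p = 1.00), Atf3 at 0.35 (adjusted p = 0.697), Jun at 0.18 (unadjusted p = 0.0435, adjusted p = 0.656) and Nr4a1 at 0.63 (adjusted p = 0.564, edgeR).

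**Figure D4:**
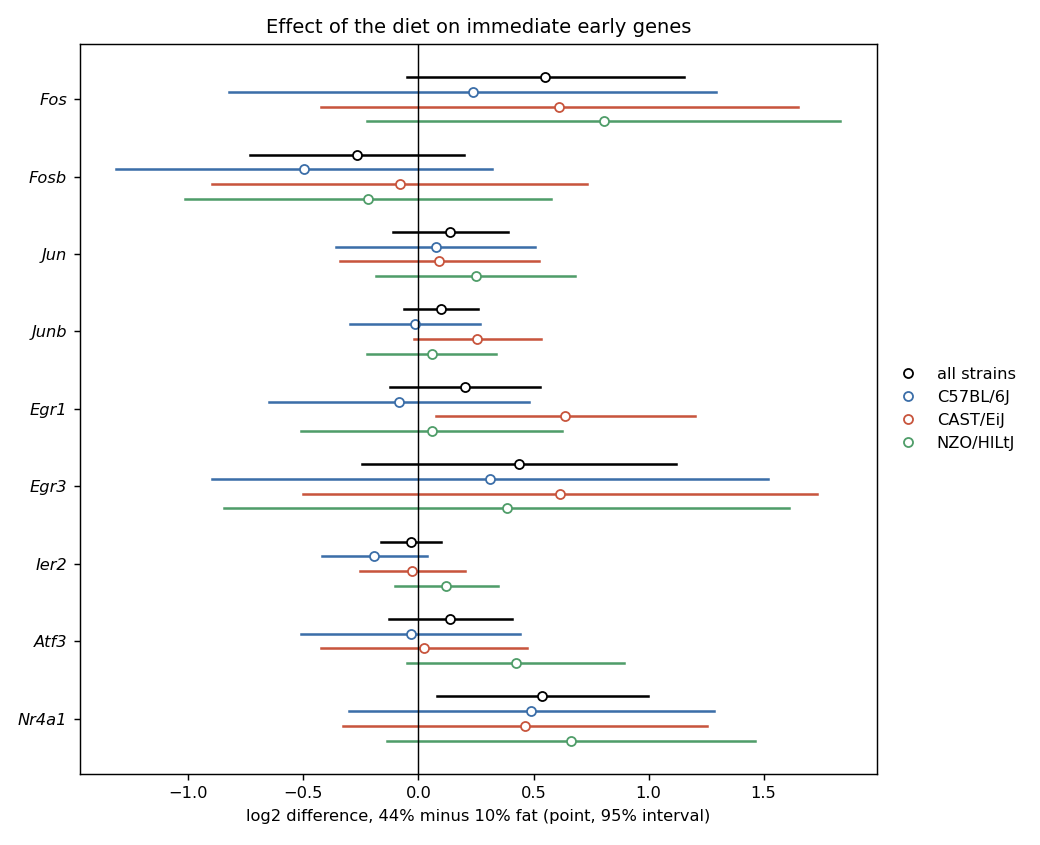
Log2 difference between 44% and 10% fat (horizontal axis) for each gene, over all strains and in each strain, as points with 95% intervals; open points were not called. No point is filled, and the intervals that do not include 0 are those of Nr4a1 over all strains (0.080 to 1.00) and Egr1 in CAST/EiJ (0.074 to 1.20).

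Within single strains, 0 of 9 were called in each case. In C57BL/6J, where 0.0407% of all genes were called (0.0349% higher and 0.00581% lower), 4 of the 9 differences were positive and the median was -0.016. Nr4a1 was at 6.59, 7.67, 7.73 and 8.03 CPM on 10% fat and at 6.04, 10.2, 9.94 and 17.1 CPM on 44% fat, a difference of 0.49 (SE 0.37, adjusted p = 0.955, edgeR). The 4 values on 10% fat lay close together and those on 44% fat spread around them. Fosb was at 0.426 to 0.659 CPM on 10% fat and at 0.345 to 0.570 CPM on 44% fat (-0.50, SE 0.39, adjusted p = 0.955).

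In CAST/EiJ, 7 of 9 differences were positive with a median of 0.26, and 0% of all genes were called (edgeR, with 1137 at an unadjusted p under 0.05). Egr1 was at 10.7, 7.47, 9.98 and 10.3 CPM on 10% fat and at 14.4, 17.1, 20.02 and 8.34 CPM on 44% fat. Of the 4 libraries on 44% fat, 3 lay above all those on 10% fat and 1 male fell among them. The difference was 0.64 (SE 0.26, unadjusted p = 0.0294, adjusted p = 0.694, edgeR). Junb was at 8.44 to 10.0 CPM and 9.66 to 12.2 CPM (0.26, SE 0.13, adjusted p = 0.775). In CAST/EiJ the replicate 2 libraries on 10% fat are in identifier range 2 and those on 44% fat in range 3. Within the first range alone, at 1 library a group, Egr1 was at 0.72 (adjusted p = 0.184) and Junb at 0.30 (adjusted p = 0.466).

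In NZO/HlLtJ, 8 of 9 differences were positive with a median of 0.25, and again 0% of all genes were called (edgeR, with 1233 at an unadjusted p under 0.05). Fos was at 0.914, 1.43, 1.12 and 4.15 CPM on 10% fat and at 3.14, 1.90, 5.86 and 1.66 CPM on 44% fat. A single high library in the first set kept the groups overlapping, and the difference was 0.81 (SE 0.48, adjusted p = 0.754, edgeR). Atf3 was at 3.10, 4.51, 4.87 and 3.17 CPM and at 3.89, 5.65, 5.75 and 5.77 CPM, with 3 of 4 libraries on 44% fat above all on 10% fat (0.42, SE 0.22, adjusted p = 0.729). Nr4a1 was at 4.75, 5.61, 7.89 and 8.17 CPM and at 6.38, 8.17, 8.49 and 20.4 CPM (0.66, SE 0.37, adjusted p = 0.738), where the highest value is of 1 male library. In NZO/HlLtJ females the libraries on 10% fat are in identifier range 2 and those on 44% fat in range 3, and in males the reverse. Diet and range therefore cannot be told apart within either sex of this strain, which also holds for its pairs in the counts above.

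The diet effects of the strains were compared directly, and no member was called. The differences of the diet effect had medians of 0.27 for CAST/EiJ against C57BL/6J (8 of 9 positive, 0% of all genes called), 0.17 for NZO/HlLtJ against C57BL/6J (9 of 9 positive, 0.00581% called) and 0.15 for NZO/HlLtJ against CAST/EiJ (5 of 9 positive, 0% called). These comparisons share the libraries of a strain, so their signs are not independent.

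The strains differed in Atf3, Junb and Ier2. Against C57BL/6J, CAST/EiJ had higher Atf3 and Junb, 2 of the 9 called, where 58.8% of all genes were called (29.1% higher and 29.7% lower). In NZO/HlLtJ 0 of 9 were called against C57BL/6J (35.5% of all genes, 17.9% higher and 17.6% lower, edgeR), with 1 at an unadjusted p under 0.05, Ier2. Against CAST/EiJ, NZO/HlLtJ had higher Ier2 and lower Atf3 (60.3% of all genes called, 30.5% higher and 29.8% lower).

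Atf3 ranged from 3.04 over a median of 4.79 to 7.65 CPM in the 8 C57BL/6J libraries, from 3.30 over 7.34 to 13.0 CPM for CAST/EiJ and from 3.10 over 4.69 to 5.77 CPM for NZO/HlLtJ. In CAST/EiJ, 3 of 8 libraries lay above the highest of C57BL/6J, and the lowest, a female on 44% fat, lay among the other strains. The difference between CAST/EiJ and C57BL/6J was 0.75 (SE 0.15, adjusted p = 0.00051, edgeR), 1.68-fold and higher in 4 of 4 pairs of sex and diet. Within the first identifier range alone, at 1 library a group, it was 0.65 (adjusted p = 0.193). The difference of NZO/HlLtJ from CAST/EiJ was -0.79 (SE 0.15, adjusted p = 0.000297), lower in 4 of 4 pairs.

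Junb had a lowest, median and highest level of 6.75, 8.03 and 9.49 CPM in C57BL/6J. The same values were 8.44, 9.84 and 12.2 CPM for CAST/EiJ and 6.94, 8.19 and 11.2 CPM for NZO/HlLtJ. Of the CAST/EiJ libraries, 5 of 8 lay above the highest of C57BL/6J. The difference was 0.26 (SE 0.094, adjusted p = 0.0221, edgeR), 1.20-fold and higher in 4 of 4 pairs of sex and diet. The call was lost without C57BL/6J female 10% fat replicate 1 (0.21, adjusted p = 0.0652), C57BL/6J male 10% fat replicate 1 (0.22, adjusted p = 0.0617) or CAST/EiJ female 44% fat replicate 2 (0.23, adjusted p = 0.0566). Prdx2, which overlaps Junb in the GENCODE M21 annotation but not in the authors' positions, was also higher in CAST/EiJ, by 0.081 (SE 0.033, adjusted p = 0.0441, edgeR). Its part in the Junb difference was not tested. Between NZO/HlLtJ and CAST/EiJ, Junb was at -0.21 (adjusted p = 0.062), and it was called with the range as a block (-0.28, adjusted p = 0.0302) and without mitochondrially encoded genes (-0.22, adjusted p = 0.0497). It was also called without NZO/HlLtJ male 44% fat replicate 1 (-0.31, adjusted p = 0.00327), CAST/EiJ female 44% fat replicate 1 (-0.24, adjusted p = 0.0459), or C57BL/6J female 10% fat replicate 1 or replicate 2 (both -0.21, adjusted p = 0.0473 and 0.0482).

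Ier2, in the same order, was at 6.28, 7.74 and 10.1 CPM in C57BL/6J, at 6.09, 7.12 and 8.38 CPM for CAST/EiJ and at 6.61, 9.32 and 10.6 CPM for NZO/HlLtJ. Of the NZO/HlLtJ libraries, 6 of 8 lay above the highest of CAST/EiJ, and the difference was 0.35 (SE 0.077, adjusted p = 0.00065, edgeR), 1.27-fold and higher in 3 of 4 pairs of sex and diet. Males were at 8.88 to 10.6 CPM in NZO/HlLtJ and 6.09 to 6.71 CPM in CAST/EiJ. Females overlapped, at 6.61 to 9.85 and 7.53 to 8.38 CPM, and on 10% fat their means were 7.66 and 7.95 CPM. Whether this strain difference depended on sex was not tested. The difference between NZO/HlLtJ and C57BL/6J was 0.18 (SE 0.077, adjusted p = 0.0696). It was called without C57BL/6J male 44% fat replicate 1 (adjusted p = 0.0394), NZO/HlLtJ female 10% fat replicate 1 (adjusted p = 0.026) or NZO/HlLtJ female 44% fat replicate 2 (adjusted p = 0.048). Between CAST/EiJ and C57BL/6J it was -0.16 (adjusted p = 0.0747), and was called without C57BL/6J male 44% fat replicate 2 (-0.20, adjusted p = 0.0384).

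Egr3, Fos, Fosb, Jun, Egr1 and Nr4a1 were not called between strains. Egr3 was at 0.498 to 1.52 CPM for CAST/EiJ and 0 to 0.675 CPM for NZO/HlLtJ, with 6 of 8 NZO/HlLtJ libraries below the lowest of CAST/EiJ, and the difference was -0.88 (SE 0.39, adjusted p = 0.0627, edgeR). DESeq2 and limma-voom called it (-0.89, adjusted p = 0.0437, and -1.31, adjusted p = 0.00996), and so did edgeR without NZO/HlLtJ female 44% fat replicate 2 (-1.05, adjusted p = 0.0481). Without NZO/HlLtJ female 10% fat replicate 2 its group is left with the 0 count alone, and Egr3 was called against CAST/EiJ (-2.55, adjusted p = 0.000237) and C57BL/6J (-1.91, adjusted p = 0.0129). Those fitted values of a gene at 0 are not bounds. Jun had a lowest, median and highest level of 45.7, 49.1 and 64.5 CPM in C57BL/6J, 28.6, 47.5 and 61.3 CPM for CAST/EiJ and 37.2, 47.2 and 63.3 CPM for NZO/HlLtJ. Its difference between NZO/HlLtJ and C57BL/6J was -0.12 (adjusted p = 0.563) and reached -0.30 with the range as a block (adjusted p = 0.0337), and that between CAST/EiJ and C57BL/6J was -0.14 (adjusted p = 0.427) and -0.32 within the first range (adjusted p = 0.0237). The intervals between CAST/EiJ and C57BL/6J were -0.58 to 0.90 for Fos, -0.74 to 0.41 for Fosb, -0.44 to 0.35 for Egr1 and -0.64 to 0.48 for Nr4a1.

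**Figure D5:**
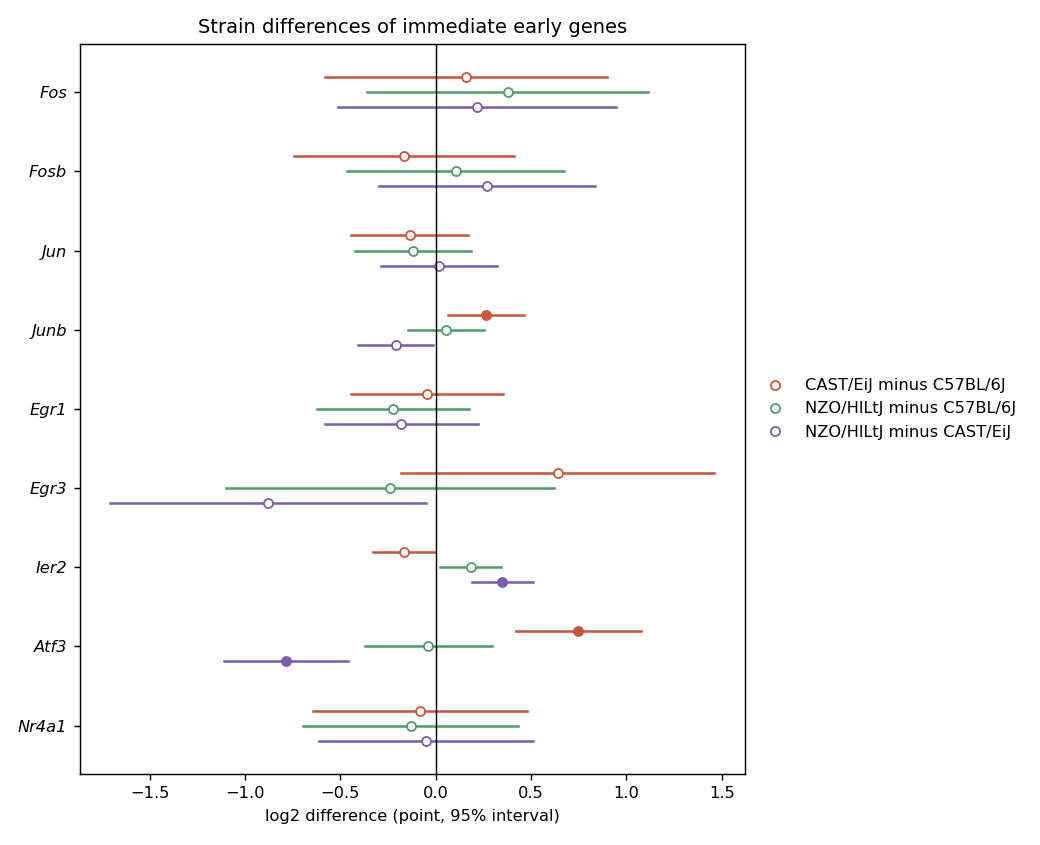
Log2 difference between strains (horizontal axis) for each gene, as points with 95% intervals; filled points were called at an adjusted p under 0.05. The filled points are Atf3 (0.75) and Junb (0.26) for CAST/EiJ against C57BL/6J and Ier2 (0.35) and Atf3 (-0.79) for NZO/HlLtJ against CAST/EiJ.

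Values of other gene lists in the same strain comparisons are given beside these results, to be read against the 58.8% of all genes called between CAST/EiJ and C57BL/6J and the 60.3% between NZO/HlLtJ and CAST/EiJ. Of 13 heat shock genes, 10 were higher and 0 lower in CAST/EiJ than in C57BL/6J, with a median of 0.45, and their summed level was 3787 to 4558 CPM in C57BL/6J and 4020 to 7272 CPM in CAST/EiJ. Between NZO/HlLtJ and CAST/EiJ, 12 of the 13 were lower, with a median of -0.40. Hspa1a, the inducible Hsp70 gene, was at 4.85, 6.03 and 21.5 CPM (lowest, median, highest) in C57BL/6J and at 14.8, 75.1 and 135.8 CPM in CAST/EiJ. Of 16 clock genes, 9 were higher and 3 lower in CAST/EiJ against C57BL/6J (median 0.43). Of 10 glucocorticoid-responsive genes, 2 were higher and 1 lower in that comparison, with a median of 0.13. Beside the higher Ier2 of NZO/HlLtJ, 9 of 10 fibroblast markers were higher there than in CAST/EiJ, with a median of 0.69. T and NK cell markers, at summed levels of 1.66 to 3.98 CPM in C57BL/6J, 0.457 to 1.71 CPM for CAST/EiJ and 1.69 to 4.65 CPM for NZO/HlLtJ, were lower for 8 of 10 genes (median -1.60) in CAST/EiJ than in C57BL/6J. The same list was higher in NZO/HlLtJ than in CAST/EiJ for 8 of 10 genes (median 2.15). Of the erythroid markers, 3 of 7 were higher (median 1.07) and of the neutrophil markers 5 of 9 were higher and 1 lower (median 0.64), both for CAST/EiJ against C57BL/6J. Of the Schwann cell and nerve markers, 5 of 9 were higher and 1 lower in NZO/HlLtJ than in CAST/EiJ (median 0.85). The part of these genes and cells in the differences of Atf3, Junb and Ier2 was not tested.

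Between the sexes 0 of 9 members were called, against 0.372% of all genes (0.198% higher and 0.174% lower in males), and 1 had an unadjusted p under 0.05 (edgeR). Atf3 was closest: it was at 3.04, 4.20 and 9.57 CPM (lowest, median, highest) in the 12 female libraries and 3.17, 6.19 and 13.0 CPM in the 12 male ones. The male minus female difference was 0.53 (SE 0.13, adjusted p = 0.104, edgeR), higher in males in 5 of 6 pairs of strain and diet. DESeq2 called it at the same size (adjusted p = 0.00608), and so did edgeR without CAST/EiJ female 44% fat replicate 2 (0.63, adjusted p = 0.0159). Nr4a1 was at 0.42 (SE 0.21, adjusted p = 0.59). The later C57BL/6J male libraries are in identifier range 2 and the later female ones in range 3. In NZO/HlLtJ, males and females on the same diet are also in different ranges, so sex and range cannot be told apart within a diet. In C57BL/6J, Atf3 was at 5.06 and 5.41 CPM in males and 4.52 and 3.42 CPM in females within the first range. The later libraries were at 6.62 and 7.65 CPM in males and 3.14 and 3.04 CPM in females. The diet effect did not differ by a called amount between the sexes for any member (0% of all genes called). Atf3 alone had an unadjusted p under 0.05, at 0.70 (interval 0.17 to 1.24, unadjusted p = 0.0134, adjusted p = 0.985, edgeR). From 10% to 44% fat its mean went from 8.20 to 4.93 CPM in CAST/EiJ females and from 7.34 to 12.6 CPM in males. In C57BL/6J it fell in females and rose in males, and in NZO/HlLtJ it rose in both sexes. Within each sex of NZO/HlLtJ the diets lie in different identifier ranges, so diet and range cannot be told apart there. The diet difference of 0.14 for Atf3 over strains averages these changes.

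In the wider families no gene was called for the diet over strains. Of 12 other AP-1 family genes, 5 other EGR and NR4A genes, 28 other immediate early genes, 21 feedback inhibitors such as the Dusp phosphatases and 22 upstream kinases and factors, 0 were called, with medians of 0.12, 0.24, 0.12, 0.060 and 0.026 against -0.0049 over all genes. Between strains some of them were called. For NZO/HlLtJ against C57BL/6J, 4 of the 28 other immediate early genes were called higher and 2 lower, where 35.5% of all genes were called. Arc and Hbegf are single examples, and the share of all genes that separate as clearly was not counted. Arc, an immediate early gene best known from neurons, was at 1.25 ± 0.281 CPM in C57BL/6J, 9.50 ± 1.94 CPM for CAST/EiJ and 4.25 ± 0.508 CPM for NZO/HlLtJ (SD, n = 8 each), and the 3 ranges did not overlap. Hbegf, a growth factor of the EGF family, was at 9.06 ± 1.12, 7.18 ± 1.61 and 18.7 ± 2.34 CPM, and its lowest NZO/HlLtJ library, 15.1 CPM, lay above the highest of the other strains, 10.8 CPM.

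The other NR4A receptors, Nr4a2 and Nr4a3, are close relatives of Nr4a1. Nr4a2 was at 1.33 ± 0.240 CPM in C57BL/6J, 1.90 ± 0.293 in CAST/EiJ and 0.747 ± 0.180 in NZO/HlLtJ (SD, n = 8 each), and NZO/HlLtJ differed from C57BL/6J by -0.84 (SE 0.15, adjusted p = 0.0002, edgeR). Nr4a3 was lower in the same comparison, at -1.04 (SE 0.24, adjusted p = 0.00387), and Nr4a1 was at -0.13 (SE 0.26, adjusted p = 0.742). The difference between these receptors was not tested. Between CAST/EiJ and C57BL/6J, where 58.8% of all genes were called, 5 of the 28 other immediate early genes were higher and 3 lower (median 0.037). Of the 22 upstream genes, 11 were higher and 5 lower (median 0.18), among them Mapk10 at 1.17 and Map2k1 at 0.66 (adjusted p = 2.41e-12 and 2.00e-11), kinases of the JNK and ERK cascades.

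Correlations between members across libraries were mostly weak. Of the 36 pairs of members, 29 had a positive correlation of log2 CPM over the 24 libraries, with a median Pearson r of 0.18 and a range of -0.42 to 0.61. After adjustment over the 36 pairs, 2 were called. Jun and Nr4a1 had r = 0.61 (permutation p = 0.00171, adjusted p = 0.049) and Spearman rho = 0.53 (permutation p = 0.0096, adjusted p = 0.203), with r = 0.62 without the 2 libraries farthest from the median of Jun. Within the 3 identifier ranges r was 0.031, 0.86 and 0.53. Fos and Junb had r = 0.59 (permutation p = 0.00272, adjusted p = 0.049) and rho = 0.47 (permutation p = 0.0216, adjusted p = 0.203), r = 0.48 without the 2 libraries farthest from the median of Fos, and 0.34, 0.71 and 0.58 within the ranges. Within the ranges 0 of 36 pairs were called, at 8 libraries each. Both calls lie just under the threshold: with each of the 24 libraries left out in turn, 0 pairs were called in 13 cases and 1 to 3 in the other 11.

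With the group means removed, 0 of 36 pairs were called in an exact test that flips the signs of the 12 within-group differences. The most negative pair was Egr1 and Nr4a1 (r = -0.85, exact p = 0.0474, adjusted p = 0.422). In NZO/HlLtJ males on 44% fat, the library with 13.4 CPM of Egr1 had 8.49 CPM of Nr4a1 and the other had 6.26 and 20.4 CPM. The most positive was Fos and Junb (r = 0.72, exact p = 0.0327, adjusted p = 0.422).

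The genes whose deviations from their group means were most like those of Fos, among 12049 genes with a mean of at least 1 CPM, were Id3 (r = 0.86), Tppp3 (0.85), Otub2 (0.84), Nrtn (0.83) and Dqx1 (0.83). For the mean of the 9 members the closest were Rps19bp1 (0.86), Lsm7 (0.82) and Gpx1 (0.82), and without Egr3, which had the 0 count, the closest were Fam213a (0.88), Dqx1 (0.85) and Ccdc174 (0.84). All these r describe 24 libraries in 12 groups and share their depth and identifier ranges. Within each group the deviations are equal and opposite, so each r rests on 12 within-group differences. The r that the closest of 12049 genes would reach by chance was not tested, so these genes are a ranking only.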

How the data were processed

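RNA was isolated from frozen heart, and polyadenylated RNA was sequenced as 100-base read pairs, per the labels' protocols. The values tested are expected counts, 1 column for each library as the authors deposited them, of which 19.3% of values were not whole (tolerance 1e-06), and a variance-stabilized matrix on a log2-like scale that served only as a check of correlations. The submitters' processing notes name GRCm38 and DESeq2 without versions. Not given in the sources used here: aligner, counter, annotation release and strand setting. Expected counts were rounded and filtered (filterByExpr of edgeR 4.0.16 in R 4.3.3, minimum count 10, minimum total 15). Of 20961 genes, 3758 were removed. TMM factors were 0.954 to 1.06. A quasi-likelihood model with 12 group means over all 24 libraries gave 12 comparisons, with Benjamini-Hochberg adjustment over 17203 genes, and a gene was called at an adjusted p under 0.05. CPM is counts per 1000000 of the TMM-scaled total. The summed levels of gene lists and the levels of Junos and Prdx2 are per 1000000 of the unscaled total. Intervals are 95%. Replicate libraries differed beyond sampling noise (chi-square divided by its degrees of freedom, 11.6 to 68.4) and were kept apart. The fit was tested on simulated data. Correlations used 100000 permutations. Alternatives used DESeq2 1.42.0, limma 3.58.1, other filters and scalings, the identifier range and leaving out each library. The 9 genes and all lists were chosen with earlier results of these data known; all 9 genes were named, with other genes from the lists.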

Additional observations from a re-analysis of the deposited data

Results flagged for a closer look

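Members' levels were screened in 81 sets of 4 or 8 libraries for a highest or lowest library far from the nearest other, a screen that picks about 1 in 20 sets by chance. It picked 9 values. Nr4a1 at 20.4 CPM in NZO/HlLtJ male 44% fat replicate 2 stood apart both from the other 3 NZO/HlLtJ libraries on 44% fat and from the other 7 of the strain. Nr4a1 at 17.1 CPM in C57BL/6J male 44% fat replicate 2 stood apart from the other 7 libraries of C57BL/6J. Fos at 4.15 CPM in NZO/HlLtJ male 10% fat replicate 2 stood above the other 3 NZO/HlLtJ libraries on 10% fat. Jun at 56.5 CPM in C57BL/6J male 10% fat replicate 2 and Egr3 at 0.197 CPM in C57BL/6J female 10% fat replicate 1 stood apart among the 4 C57BL/6J libraries on 10% fat, as did Fosb at 0.570 CPM in C57BL/6J male 44% fat replicate 1 among the 4 on 44% fat. In NZO/HlLtJ on 44% fat, Ier2 at 8.12 CPM in female replicate 2 and Atf3 at 3.89 CPM in female replicate 1 were the low ones.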

How the results depend on the processing

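No paired analysis was possible because the replicate numbers were given in accession order and pair no libraries. For single members, 535 of the log2 differences under other settings kept their direction and side of the threshold, 9 reversed, 7 gained a call and 1 lost it; leaving out a library gave 1456, 65, 12 and 3. In each setting run, 0 members were called for the diet over strains, within strains or between strains' diet effects. DESeq2 called 1 member between the sexes, and the identifier range as a block 1 between NZO/HlLtJ and C57BL/6J. Reversed values were 0.00025 for Atf3 and the diet in C57BL/6J (limma-voom). With the range as a block they were -0.0089 for Junb between NZO/HlLtJ and C57BL/6J, and -0.085 for Fos and -0.14 for Jun between NZO/HlLtJ and CAST/EiJ. Within the first range they were 0.23 for Junb and 0.14 for Egr1 (diet in C57BL/6J), -0.040 for Atf3 (diet in CAST/EiJ), and -0.040 for Fos and 0.019 for Egr1 between CAST/EiJ and C57BL/6J. The cause was not tested. Correlated pairs numbered 0 for deviations from group means and 0 within each of the 3 ranges, where 8 libraries remain.

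With each library left out in turn, the members called numbered 1 to 3 between CAST/EiJ and C57BL/6J, 0 to 1 between NZO/HlLtJ and C57BL/6J, 2 to 3 between NZO/HlLtJ and CAST/EiJ, 0 to 1 between the sexes, and correlated pairs 0 to 3. The libraries that change a call stand beside the results. Where a group keeps 1 library, it is assumed to vary like the others. Reversals were among differences that had not been called. For NZO/HlLtJ minus C57BL/6J, log2 differences ran over Atf3 -0.12 to 0.031, Egr3 -1.91 to 0.036, Fosb -0.16 to 0.24 and Junb -0.046 to 0.13. For the diet effect in C57BL/6J, log2 differences ran over Atf3 -0.17 to 0.10, Egr1 -0.21 to 0.026, Egr3 -0.24 to 0.75, Jun -0.061 to 0.19 and Junb -0.12 to 0.12. For the diet effect in CAST/EiJ, log2 differences ran over Atf3 -0.27 to 0.23, Fosb -0.35 to 0.14, Ier2 -0.063 to 0.015 and Jun -0.091 to 0.33. For CAST/EiJ minus C57BL/6J, log2 differences ran over Egr1 -0.23 to 0.080, Fos -0.055 to 0.30 and Nr4a1 -0.29 to 0.053. For NZO/HlLtJ minus CAST/EiJ, log2 differences ran over Egr1 -0.35 to 0.0098, Fos -0.096 to 0.43, Jun -0.075 to 0.14 and Nr4a1 -0.24 to 0.16. For the diet effect in NZO/HlLtJ, log2 differences ran over Egr1 -0.28 to 0.27, Egr3 -0.091 to 3.73, Fosb -0.74 to 0.048 and Junb -0.14 to 0.21. For the diet effect over strains, log2 differences ran over Ier2 -0.063 to 0.0036. Counts per library were lowest for Fosb (7 to 32) and Egr3 (0 to 65).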
